A study of Homo sapiens with 3 samples.

Results

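The 9 genes described here are NFE2L2, which encodes the transcription factor NRF2, its negative regulator KEAP1, the KEAP1-binding autophagy receptor SQSTM1, and 6 target genes used as readouts of the oxidative stress response: TXNRD1, SRXN1, PGD, NQO1, AKR1C1 and HMOX1. They were chosen by symbol from 19224 gene symbols, and each was represented by the RefSeq transcript with the most reads over the libraries. All 9 were present, and all 9 were among the 10153 genes with a mean of at least 1 RPKM, a read count corrected for transcript length and sequencing depth.

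The RNA came from 5637 cells, a human bladder cancer line in long use and labelled WT, and 3 libraries were sequenced after ribosomal RNA had been removed. Cells transfected with siRNA against CDCA3, a cell division cycle associated gene, gave 2 libraries (siCDCA3-1 and siCDCA3-2), and cells transfected with siNC gave 1. All groups share the transfection reagent and the medium, and from the labels siCDCA3-1 and siCDCA3-2 could be different siRNAs or repeated cultures. Since nothing shows that they came from separate cultures, the p-values below measure only the spread between these libraries, largely pooled over all genes. That spread may be technical, or may hold a difference between siRNAs if these were different. In bulk RNA, fewer cells carrying a transcript and less RNA per cell cannot be told apart.

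The libraries held 40420562 (siCDCA3-1), 62389920 (siCDCA3-2) and 50912733 (siNC) gene-level counts. CDCA3 had 0.574 RPKM in siCDCA3-1 and 1.40 in siCDCA3-2, against 5.52 in siNC, so the targeted gene was low in both libraries labelled as its knockdown, although its adjusted p was 0.9997 (edgeR quasi-likelihood test, Benjamini-Hochberg). Of 13 epithelial and urothelial markers, 10 reached 1 RPKM in every library, and the uroplakin genes UPK1B, UPK2 and UPK3A, markers of differentiated urothelium, were below 1 in all of them. Of these 10, 4 (KRT5, KRT17, KRT19 and TP63) were below siNC in both siCDCA3 libraries, where 27.8% of the 10153 genes were. Above in both was 1, KRT7 (356.1 and 377.0 RPKM in siCDCA3-1 and siCDCA3-2, against 340.5 in siNC), where 23.6% of genes were. The other 5, EPCAM, CDH1, KRT8, KRT18 and GATA3, had siNC between. KRT5, a basal keratin, had 217.9 and 199.9 RPKM in siCDCA3-1 and siCDCA3-2, against 420.8 in siNC. KRT17, also a basal keratin, had 210.1 and 137.7, against 429.1 in siNC, and TP63, a basal transcription factor, had 6.3 and 12.4, against 16.0 in siNC. The summed level of the 13 was 2205.8 and 1802.8 RPKM in siCDCA3-1 and siCDCA3-2, against 2627.0 in siNC. Of the leukocyte markers 4 of 5 and of the endothelial markers 3 of 3 were below 1 RPKM throughout. The remaining leukocyte marker, CD68, had 1.94 and 0.993 RPKM in siCDCA3-1 and siCDCA3-2, against 1.42 in siNC. Of 6 fibroblast and muscle markers 4 were below 1 throughout, while COL1A1 had 8.33 and 2.26 RPKM in siCDCA3-1 and siCDCA3-2, against 6.96 in siNC. ACTA2 had 0.849 and 0.801, against 1.95 in siNC, below siNC in both. The part of these marker differences in the results below was not tested.

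NRF2 is made continuously and destroyed continuously. In unstressed cells KEAP1 holds it on a CUL3 ubiquitin ligase that marks it for the proteasome. Oxidants and electrophiles modify cysteines of KEAP1, NRF2 then accumulates, pairs with a small MAF protein and binds antioxidant response elements near genes for NADPH production, thioredoxin and glutathione chemistry, quinone reduction and heme breakdown. The autophagy receptor p62, encoded by SQSTM1, competes for KEAP1 and is itself an NRF2 target. This control acts mainly on NRF2 protein, and neither the protein nor its binding was analysed here.

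The core of the antioxidant response element, TGACNNNGC, was searched on both strands in the 250 bases before each annotated transcription start, with sequences from RefSeq (GRCh38.p14). Windows were available for 8 of the 9 genes, 13 windows in all. The motif was present in 4 of the 13 windows, belonging to 3 genes (PGD, TXNRD1 and KEAP1), while 10.9% of all 35116 windows held it. The 5 matches are shown because they place the letters that NRF2 is known to read near the starts of genes whose values follow. Each is printed on the strand that carries the motif, with 10 bases on either side and the motif in capitals.
PGD, chr1:10398853-10398881, minus strand: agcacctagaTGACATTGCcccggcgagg
TXNRD1, upstream start, chr12:104215670-104215698, plus strand: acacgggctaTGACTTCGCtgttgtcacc
TXNRD1, downstream start, chr12:104286920-104286948, minus strand: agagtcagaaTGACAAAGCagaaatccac
KEAP1, farther match, chr19:10502807-10502835, minus strand: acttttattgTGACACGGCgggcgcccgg
KEAP1, nearer match, chr19:10502784-10502812, plus strand: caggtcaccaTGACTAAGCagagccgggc
The motif began 201 bases before the start in PGD, 99 and 102 bases before the upstream and downstream starts in TXNRD1, and 54 and 31 bases before the downstream one of the KEAP1 starts, which lies inside the KEAP1 locus. None of the 5 overlapped the AP-1 motif TGACTCA or TGAGTCA. A match describes letters in a short window and is not evidence of binding, and the other windows were searched no further.

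Taking the control genes first, NFE2L2 RNA was lower and SQSTM1 RNA higher in both siCDCA3 libraries, with KEAP1 close to its siNC level. NFE2L2 (NM_006164.4, GRCh38 chromosome 2, 177230303 to 177264727) had 12.1 RPKM in siCDCA3-1 and 10.0 in siCDCA3-2, against 17.0 in siNC. Both siCDCA3 values lay below siNC. The ratios to siNC were 0.715 (95% interval 0.686 to 0.745) and 0.590 (0.567 to 0.613), from 3607, 4589 and 6321 counts in siCDCA3-1, siCDCA3-2 and siNC. These intervals are exact binomial ones that cover counting error only, here and below.

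KEAP1 (NM_203500.1, chromosome 19, 10486125 to 10503356) had 18.2 RPKM in siCDCA3-1 and 18.5 in siCDCA3-2, against 16.4 in siNC. It varied the least of the 9 genes, with a highest library 1.13 times its lowest. Its ratios of 1.11 (1.07 to 1.15) and 1.13 (1.09 to 1.17) exceeded counting error. With no replicate of siNC, this does not show a difference between conditions. The level of NFE2L2 RPKM over that of KEAP1 was 0.667 in siCDCA3-1 and 0.540 in siCDCA3-2, against 1.03 in siNC, a ratio of RNA levels and not of proteins.

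SQSTM1 (NM_003900.4, chromosome 5, 179806393 to 179838078) had 75.4 RPKM in siCDCA3-1 and 59.4 in siCDCA3-2, against 45.9 in siNC. Both siCDCA3 libraries were above siNC, siCDCA3-1 by more. The ratios were 1.64 (1.61 to 1.67) and 1.29 (1.27 to 1.32). In GENCODE 29, SQSTM1 overlaps MRNIP on the opposite strand over 2946 bases and MGAT4B, also on the opposite strand, over 555 bases. The sources used here do not state whether counting used strand. MRNIP had 6.45 and 5.32 RPKM in siCDCA3-1 and siCDCA3-2, against 3.98 in siNC, so it lay on the same side of siNC as SQSTM1. Reads within the overlap cannot be told apart without strand. Counts in siCDCA3-1, siCDCA3-2 and siNC were 807, 1026 and 623 for MRNIP, and 22796, 27706 and 17394 for SQSTM1. The part of MRNIP reads in the SQSTM1 difference was not tested. MGAT4B had 45.9 and 36.5 RPKM in siCDCA3-1 and siCDCA3-2, against 39.8 in siNC, with siNC between the siCDCA3 libraries.

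**Figure D1:**
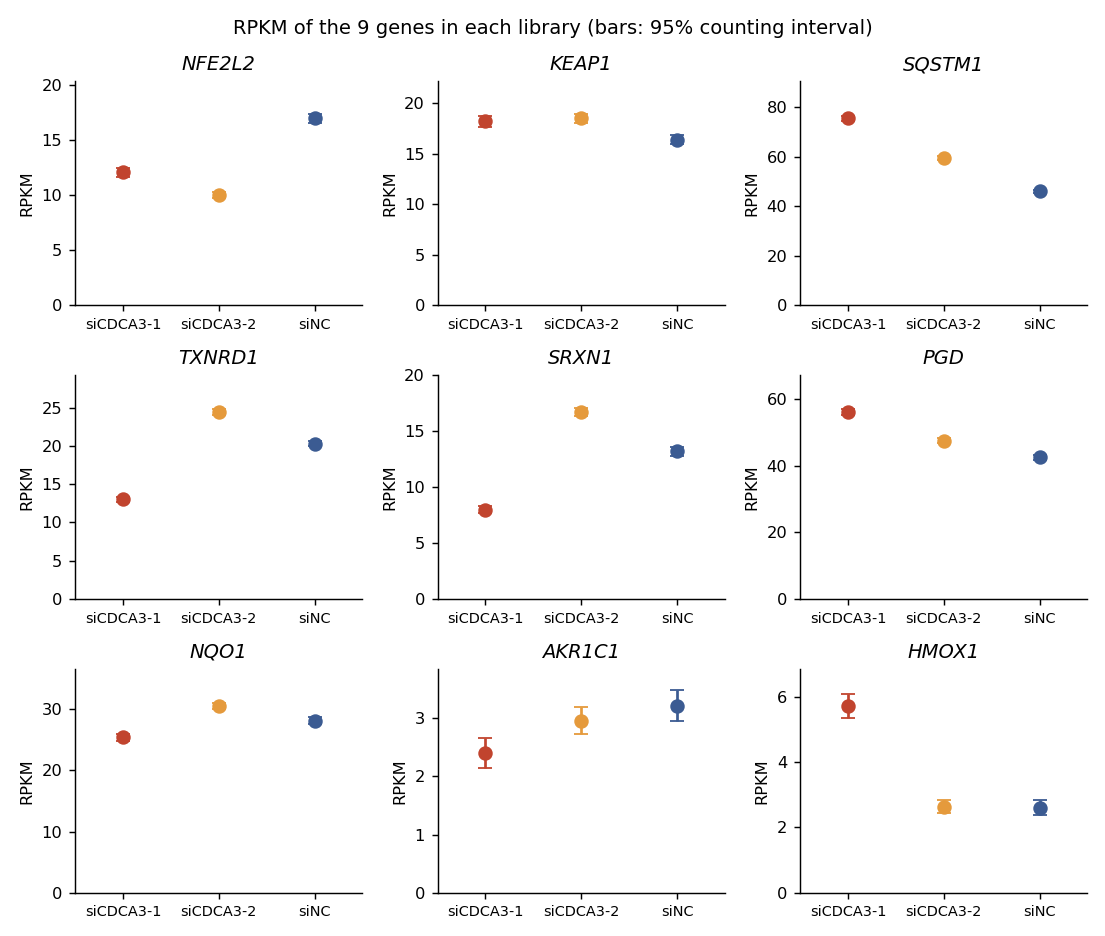
RPKM (vertical axes, each from 0) of the 9 genes in siCDCA3-1, siCDCA3-2 and siNC (horizontal axes); points are single libraries and bars are exact 95% Poisson intervals on the counts. NFE2L2 was lower and SQSTM1 higher in both siCDCA3 libraries, TXNRD1, SRXN1 and NQO1 had siNC between the siCDCA3 libraries, and HMOX1 was high in siCDCA3-1 alone.

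Among the target genes, TXNRD1 and SRXN1 had the same pattern, low in siCDCA3-1 and above siNC in siCDCA3-2. Both serve the thioredoxin system. TXNRD1 encodes the NADPH-dependent selenoenzyme that reduces thioredoxin, and SRXN1 encodes sulfiredoxin, which restores overoxidised peroxiredoxins. TXNRD1 (NM_001261445.1, chromosome 12, 104215779 to 104350307) had 13.0 RPKM in siCDCA3-1 and 24.4 in siCDCA3-2, against 20.3 in siNC. Its siCDCA3 libraries lay on opposite sides of siNC, with ratios of 0.639 (0.619 to 0.660) and 1.2 (1.17 to 1.23).

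SRXN1 (NM_080725.2, chromosome 20, 646615 to 653200) had 7.98 RPKM in siCDCA3-1 and 16.7 in siCDCA3-2, against 13.2 in siNC. The ratios were 0.606 (0.576 to 0.637) and 1.27 (1.22 to 1.32), again on opposite sides of siNC. The siCDCA3-2 level was 2.09 times the siCDCA3-1 level for SRXN1 and 1.88 times for TXNRD1. A longer gene on the same strand in GENCODE 29, AL121758.1, overlaps 6745 bases of the SRXN1 locus, and 84.2% of the 150-base windows of the SRXN1 transcript also occur in its transcripts. Within this shared part, reads of the pair could therefore not be separated by sequence. SCRT2, taken here as a neighbouring gene, had 0 and 1 counts in siCDCA3-1 and siCDCA3-2, against 1 in siNC. The part of AL121758.1 reads in the SRXN1 values was not tested.

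PGD encodes 6-phosphogluconate dehydrogenase, which makes NADPH in the pentose phosphate pathway. PGD (NM_002631.3, chromosome 1, 10399064 to 10420511) had 56.0 RPKM in siCDCA3-1 and 47.5 in siCDCA3-2, against 42.5 in siNC. Both siCDCA3 values were above siNC, with ratios of 1.32 (1.29 to 1.35) and 1.12 (1.09 to 1.15). The order of the libraries was the one seen for SQSTM1.

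NQO1, which encodes a quinone reductase widely used as a marker of NRF2 activity, was near its siNC level throughout. NQO1 (NM_000903.2, chromosome 16, 69709401 to 69726560) had 25.4 RPKM in siCDCA3-1 and 30.5 in siCDCA3-2, against 28.1 in siNC. With ratios of 0.902 (0.874 to 0.931) and 1.08 (1.06 to 1.11), the siCDCA3 libraries straddled siNC as for TXNRD1 and SRXN1, over a narrower range.

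AKR1C1 encodes an aldo-keto reductase that reduces steroids and other carbonyl compounds. AKR1C1 (NM_001353.5, chromosome 10, 4963415 to 4983283) had 2.40 RPKM in siCDCA3-1 and 2.95 in siCDCA3-2, against 3.21 in siNC, from 344, 654 and 578 counts. Both siCDCA3 values were below siNC. The ratio of 0.745 (0.650 to 0.853) in siCDCA3-1 lay outside counting error, and that of 0.919 (0.820 to 1.03) in siCDCA3-2 did not. The level is uncertain because of a near-identical paralogue: 743 windows of 150 bases in the AKR1C1 transcript of GENCODE 29, or 11.3% of them, also occur in AKR1C2, and 28.3% of 50-base windows do. That transcript has 6705 bases, and the RefSeq one that was counted has 1379. The shared part of the counted one was not computed and may be a higher percentage. AKR1C2 itself had 1.70 and 1.84 RPKM in siCDCA3-1 and siCDCA3-2, against 3.92 in siNC.

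HMOX1 encodes heme oxygenase 1, which opens the heme ring to give biliverdin, iron and carbon monoxide. It is activated through NRF2 and held down by the heme-sensing repressor BACH1. HMOX1 (NM_002133.2, chromosome 22, 35381096 to 35394207) had 5.72 RPKM in siCDCA3-1 and 2.63 in siCDCA3-2, against 2.60 in siNC, from 948, 672 and 539 counts. The siCDCA3-1 library stood above the other two, which did not differ beyond counting error. The ratios of RPKM were 2.20 (1.98 to 2.45) in siCDCA3-1 and 1.01 (0.903 to 1.14) in siCDCA3-2. In siCDCA3-1 HMOX1 was thus above siNC where TXNRD1 and SRXN1 were below it.

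Tested across all genes as siCDCA3 against siNC, 0 of the 9 genes passed an adjusted p of 0.05 in edgeR, and 0 had an unadjusted p below 0.05. DESeq2 and limma also called 0 of them. Over all 10153 genes edgeR called 3, or 0.0295%, all lower in the siCDCA3 libraries, and 1.32% had an unadjusted p below 0.05. The 3 were ASNS, NUPR1 and CHAC1, named after their values were seen and not among the genes described here. The edgeR log2 fold change of NFE2L2 was -0.60 with a standard error of 0.48, that of HMOX1 was 0.72 with 0.70, and that of SQSTM1 was 0.57 with 0.53. The others ran from -0.26 for AKR1C1 to 0.30 for PGD. The adjusted edgeR p was 0.9997 for each of the genes. The fit has a single siNC library, assumed to vary like the siCDCA3 libraries, so missing the threshold is no sign of equal expression.

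By position alone, KEAP1, SQSTM1, PGD and HMOX1 were above siNC in both siCDCA3 libraries, 4 of 9, where 23.6% of all genes tested were. HMOX1 counted among them by a log2 difference of 0.01 in siCDCA3-2, which turned to the other side of siNC under TMM or median-of-ratios scaling. NFE2L2 and AKR1C1 were below siNC in both, 2 of 9, where 27.8% of genes were. TXNRD1, SRXN1 and NQO1 were below siNC in siCDCA3-1 and above it in siCDCA3-2, 3 of 9, where 30.8% of all genes showed this order. The reverse order was shown by 0 of the 9 and by 17.8% of all genes. Both differences use the one siNC library, and a shared side is not a pair of independent results.

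On the log2(RPKM + 1) scale, where the added 1 understates the change of low genes, 0 of the 9 differed 2-fold from siNC in both siCDCA3 libraries. Over all genes 0.0985% were 2-fold higher and 0.719% 2-fold lower in both. At 1.5-fold in both libraries the count was also 0 of the 9, where 2.61% of all genes passed. In siCDCA3-1 alone 0 of the 9 passed 2-fold, where 0.847% of all genes were higher and 1.74% lower by that much. HMOX1 came nearest at 0.90, and was past 2-fold with 0.5 or 0.1 added in place of 1 (1.01 and 1.11). In siCDCA3-2 alone 0 of the 9 passed 2-fold, where 1.42% of all genes were higher and 3.27% lower. At 1.5-fold, siCDCA3-1 differed from siNC at 4 of the 9 genes (HMOX1 by 0.90, SQSTM1 by 0.70, SRXN1 by -0.66 and TXNRD1 by -0.61), where 11.1% of all genes did. Library siCDCA3-2 differed at 1 of the 9 (NFE2L2 by -0.71), where 19.2% of all genes did. Between the siCDCA3 libraries, 3 of the 9 genes were 1.5-fold apart, where 28.1% of all genes were: SRXN1 and TXNRD1 were higher in siCDCA3-2, by 0.98 and 0.86, and HMOX1 was lower there, with a difference of -0.89. Of all genes 17.6% were 1.5-fold higher in siCDCA3-2 than in siCDCA3-1. At 2-fold 0 of the 9 differed between these libraries on this scale, where 8.63% of all genes did. The median log2 difference over the 9 genes was -0.143 in siCDCA3-1 and 0.159 in siCDCA3-2, beside -0.067 and 0.046 over all genes. With TMM scaling these medians were -0.064 and 0.101 over the 9 genes, beside -0.001 and -0.002 over all genes, and with median-of-ratios scaling -0.067 and 0.111, beside -0.003 and 0.007.

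**Figure D2:**
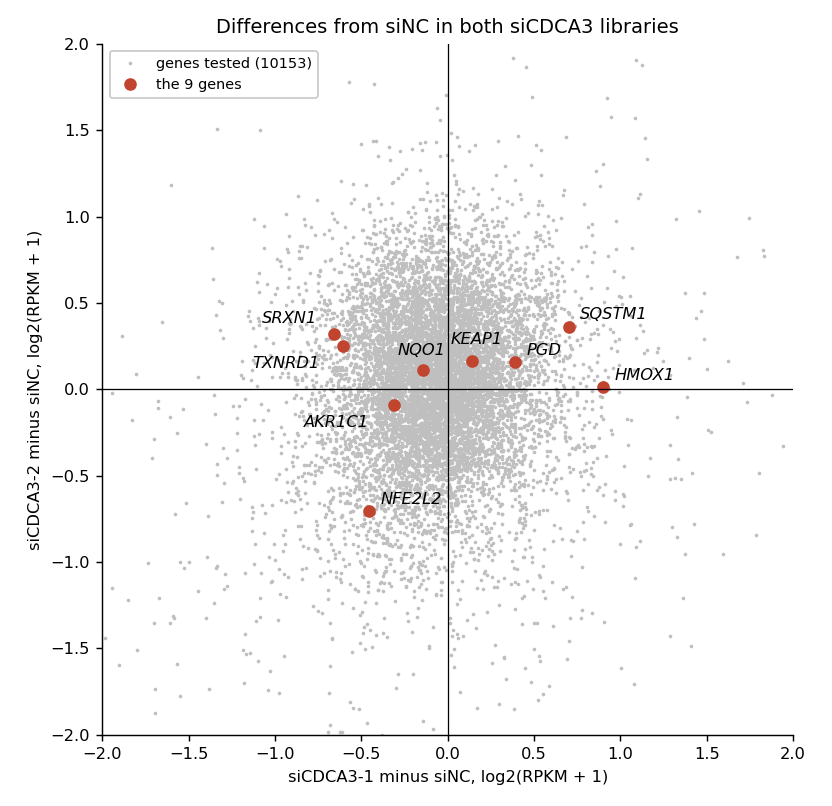
Difference from siNC in log2(RPKM + 1) for siCDCA3-1 (horizontal axis) and siCDCA3-2 (vertical axis); grey points are the 10153 genes tested, of which 68 lie outside the axes, and red points are the 9 genes. NFE2L2 sits at -0.45 and -0.71, SQSTM1 at 0.70 and 0.36, HMOX1 at 0.90 and 0.01, and TXNRD1 and SRXN1 sit together at the upper left.

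In order of mean RPKM, a level per length, the genes ran SQSTM1 (60.2), PGD (48.7), NQO1 (28.0), TXNRD1 (19.2), KEAP1 (17.7), NFE2L2 (13.0), SRXN1 (12.6), HMOX1 (3.65) and AKR1C1 (2.85). SQSTM1 ranked 1, PGD 2 and NQO1 3 in every library. The ranges over the libraries of neighbours overlapped for SQSTM1 and PGD, for TXNRD1 and KEAP1, for KEAP1 and NFE2L2, for NFE2L2 and SRXN1, and for HMOX1 and AKR1C1. Although SQSTM1 was above PGD within every library, by range the order of these neighbours did not exceed the spread over the libraries. The steps from PGD to NQO1, from NQO1 to TXNRD1 and from SRXN1 to HMOX1 did. SQSTM1 was above 95.8% of the genes tested and AKR1C1 above 26.5%.

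Transcripts of one gene gave similar differences. RefSeq transcripts listed numbered 8 for NFE2L2, 7 for TXNRD1, 4 for NQO1, 3 each for SQSTM1 and PGD and 2 for KEAP1, while SRXN1, AKR1C1 and HMOX1 had 1. Reads are shared among the transcripts of a gene, so these are not independent measurements. Over the NFE2L2 transcripts, the log2 difference from siNC ran from -0.49 to -0.42 in siCDCA3-1 and from -0.71 to -0.59 in siCDCA3-2. Over those of TXNRD1 it ran from -0.62 to -0.61 in siCDCA3-1 and was 0.25 throughout in siCDCA3-2. In NQO1, whose least counted transcript had 66.8% of the reads of the most counted one, it ran from -0.17 to -0.13 in siCDCA3-1 and from 0.10 to 0.13 in siCDCA3-2.

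**Figure D3:**
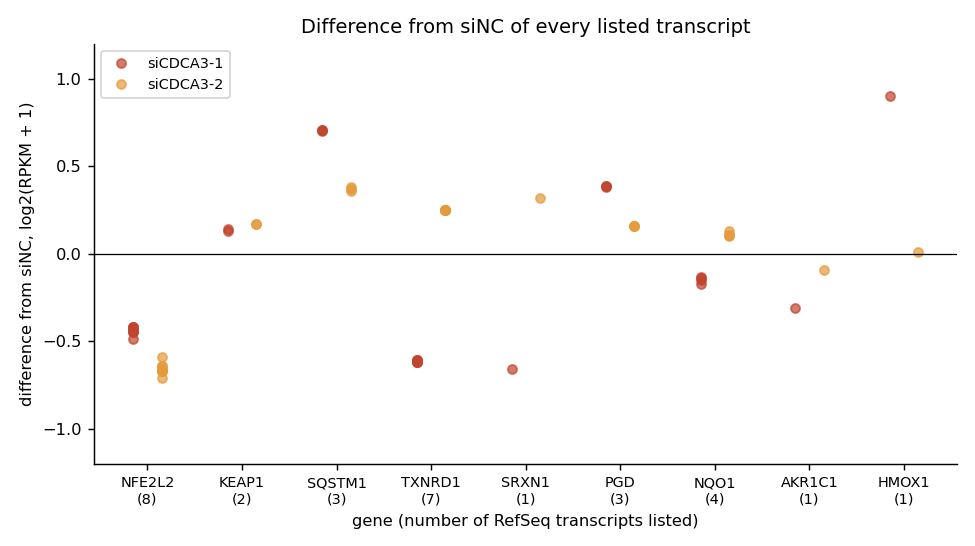
Difference from siNC in log2(RPKM + 1) (vertical axis) of every listed transcript of the 9 genes (horizontal axis, with the number of transcripts), in siCDCA3-1 and siCDCA3-2. Points of one gene and library lie close together, the widest spread being that of NFE2L2 in siCDCA3-2 (-0.71 to -0.59).

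The genes whose pair of log2 differences lay nearest to that of NFE2L2, among 3143 genes with a mean of at least 10 RPKM, were GPKOW (-0.41 in siCDCA3-1 and -0.70 in siCDCA3-2), PDLIM1 (-0.43 and -0.75) and ERP29 (-0.51 and -0.67), at Euclidean distances of 0.0401, 0.0452 and 0.0617. For SQSTM1 they were CARS2 (0.72 and 0.42), NAGK (0.70 and 0.44) and TLE3 (0.70 and 0.44), at distances of 0.0608, 0.0712 and 0.0773. Likeness over 3 libraries is a description of these values only.

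The wider pathway was followed in 9 lists with 120 genes, of which 102 reached a mean of 1 RPKM. Of these 0 passed the adjusted edgeR threshold in either direction, and 3 had an unadjusted p below 0.05. In both siCDCA3 libraries 21 were above siNC (20.6%, beside 23.6% of all genes tested) and 39 below it (38.2%, beside 27.8%). Their median log2 differences were -0.156 in siCDCA3-1 and -0.108 in siCDCA3-2. The shares over all genes, 23.6% above siNC in both and 27.8% below, are the background for each list below. No gene of these lists can be called changed from this test, and those below are given as values.

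Of the 16 measured regulators of KEAP1 and NRF2, 6 were above siNC in both siCDCA3 libraries (37.5%, beside 23.6% of all genes), 6 were below in both (37.5%, beside 27.8%), and the list medians were -0.116 and 0.150. NFE2L1, which encodes the related factor NRF1 that controls proteasome genes, was the regulator 1.5-fold or more below siNC in both siCDCA3 libraries, with 34.1 RPKM in siCDCA3-1 and 25.9 in siCDCA3-2, against 76.6 in siNC. Its ratios were 0.445 (0.438 to 0.453) and 0.338 (0.333 to 0.344), with an edgeR unadjusted p of 0.0216 and an adjusted p of 0.9997. NEDD8, the ubiquitin-like protein that activates cullin ligases, had the highest mean of the list, with 63.3 and 74.0 RPKM in siCDCA3-1 and siCDCA3-2, against 58.8 in siNC.

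The enzymes that supply NADPH beside PGD gave 3 of 6 above siNC in both siCDCA3 libraries (all genes 23.6%) and 1 below in both (all genes 27.8%). TALDO1, transaldolase of the pentose phosphate pathway, had 69.5 and 72.6 RPKM in siCDCA3-1 and siCDCA3-2, against 68.8 in siNC. In the thioredoxin and peroxiredoxin list 4 of 13 were above siNC in both and 4 below, 30.8% each way, near the 23.6% and 27.8% of all genes. TXN, the thioredoxin that TXNRD1 reduces, had 114.7 and 165.2 RPKM in siCDCA3-1 and siCDCA3-2, against 107.6 in siNC.

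Of the 14 measured glutathione genes 2 were above siNC in both siCDCA3 libraries (14.3%, beside 23.6% of all genes) and 3 were below in both (21.4%, beside 27.8%). The order of TXNRD1 and SRXN1, below siNC in siCDCA3-1 and above it in siCDCA3-2, was shown by 5 (35.7%, near the 30.8% of all genes). These were SLC7A11, GCLC, GCLM, GSR and MGST2. The reverse order was shown by 4 (28.6%, beside 17.8%), namely GPX4, GSTM3, GSTM4 and MGST3. SLC7A11 had 0.849 and 7.46 RPKM in siCDCA3-1 and siCDCA3-2, against 5.83 in siNC. In the same library order GCLC had 2.36, 4.53 and 3.54 RPKM, GCLM 1.15, 2.33 and 1.99, and GSR 5.62, 12.7 and 7.65. GSTP1, a glutathione transferase and the most abundant of the list, had 326.5 and 307.3 RPKM in siCDCA3-1 and siCDCA3-2, against 395.9 in siNC.

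Of the 12 measured quinone, aldehyde and ketone enzymes 7 were below siNC in both siCDCA3 libraries (58.3%, beside 27.8% of all genes) and 1 above (8.33%, beside 23.6%), with medians of -0.374 and -0.259. NQO2, a quinone reductase related to NQO1, had 3.66 and 3.80 RPKM in siCDCA3-1 and siCDCA3-2, against 6.4 in siNC. AKR1C2, the paralogue of AKR1C1 given above, had an edgeR log2 fold change of -1.14 with a standard error of 0.54 (unadjusted p = 0.0553, adjusted p = 0.9997). The single gene above siNC in both was AKR1B1, aldose reductase, also the most abundant, with 109.5 and 69.7 RPKM in siCDCA3-1 and siCDCA3-2, against 68.5 in siNC.

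The heme and iron genes that stand beside HMOX1 gave 0 of 8 above siNC in both siCDCA3 libraries (all genes 23.6%) and 4 below in both (all genes 27.8%). FTH1, the ferritin heavy chain that stores the iron released from heme, had 2670.0 RPKM in siCDCA3-1 and 718.6 in siCDCA3-2, against 1338.5 in siNC. Like HMOX1, it was highest in siCDCA3-1. Its ratio of 0.537 (0.533 to 0.541) in siCDCA3-2 lay below siNC, where that of HMOX1 was 1.01.

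Efflux transporters and other NRF2 targets gave 2 of 7 above siNC in both siCDCA3 libraries (28.6%, near the 23.6% of all genes) and 1 below (14.3%, beside 27.8%). TRIM16, a ubiquitin ligase, had 11.2 and 7.58 RPKM in siCDCA3-1 and siCDCA3-2, against 6.67 in siNC. In the list of superoxide dismutases, catalase, sestrins and metallothioneins 4 of 9 were below siNC in both (44.4%, beside 27.8% of all genes) and 2 above (22.2%, near the 23.6% of all genes). SESN2, a stress-induced sestrin also known as an ATF4 target, had 4.11 and 4.02 RPKM in siCDCA3-1 and siCDCA3-2, against 14.1 in siNC (edgeR log2 fold change -1.78, standard error 0.46, unadjusted p = 0.0019, adjusted p = 0.9997). SOD2, the mitochondrial superoxide dismutase, had 60.7 and 28.3 RPKM in siCDCA3-1 and siCDCA3-2, against 98.1 in siNC. MT2A, a metallothionein, had 130.5 RPKM in siCDCA3-1 and 594.5 in siCDCA3-2, against 336.9 in siNC, on opposite sides of siNC as TXNRD1 and SRXN1 were.

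Of the 17 measured autophagy partners of SQSTM1, 1 was above siNC in both siCDCA3 libraries (5.88%, beside 23.6% of all genes) and 9 were below in both (52.9%, beside 27.8%), with medians of -0.121 and -0.450. CALCOCO2, another autophagy receptor, had 6.49 and 5.47 RPKM in siCDCA3-1 and siCDCA3-2, against 13.7 in siNC, with an edgeR unadjusted p of 0.0263 and an adjusted p of 0.9997. GABARAP, an LC3-family protein that such receptors bind, had 59.9 and 36.9 RPKM in siCDCA3-1 and siCDCA3-2, against 57.9 in siNC.

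**Figure D4:**
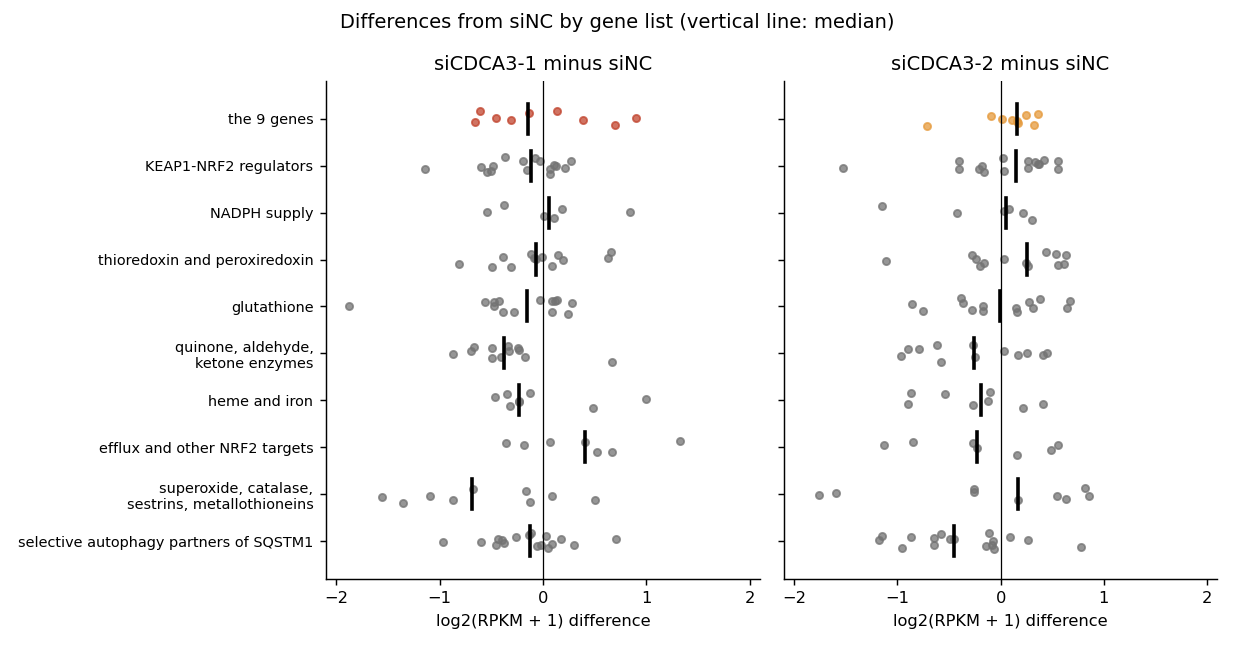
Difference from siNC in log2(RPKM + 1) (horizontal axes) in siCDCA3-1 and siCDCA3-2 for the 9 genes and the measured members of 9 pathway lists (rows); points are genes and vertical lines are medians. Points of most lists lie on either side of 0, the autophagy partners of SQSTM1 have medians of -0.121 and -0.450, and the quinone, aldehyde and ketone enzymes have medians of -0.374 and -0.259.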

How the data were processed

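The submitters' processing notes name Trimmomatic 0.36, FastQC, HISAT2 and HTSeq. Genome builds are listed there without a role, and 98.6% of the accessions matched human RefSeq genes. The authors deposited, per the file headers, a raw read count and an RPKM for each of 45006 RefSeq transcripts in each library. Each library's RPKM came from 1 total (104153360 for siCDCA3-1, 160640877 for siCDCA3-2 and 130459616 for siNC), recovered from the deposited values. Symbols turned into dates were restored from accessions in all but 1 of 103 rows.

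The transcript with the most counts stood for each gene. The main test was edgeR 4.0.16 (R 4.3.3) on counts, scaled by TMM, comparing 2 siCDCA3 libraries with 1 siNC library by a two-sided quasi-likelihood test. P-values were adjusted by Benjamini-Hochberg over 10153 genes. A standard error is the size of the log2 fold change divided by the root of its F statistic. The fit was checked on simulated data with changes larger than those of the 9 genes, so changes of their size were not covered. DESeq2 1.42.0, limma 3.58.1 on log2(RPKM + 1), other filters, scalings, pseudocounts and the longest transcript were alternatives. Coordinates, promoters and overlaps came from RefSeq (GRCh38.p14) and GENCODE 29.

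The 9 genes and the pathway lists were chosen with earlier results of these data known. From each list the text names genes past the adjusted threshold or at least 1.5-fold from siNC in the same direction in both siCDCA3 libraries (at most 5 a list), the most abundant gene, and AKR1C2. Glutathione genes with siNC between the siCDCA3 libraries were named outside this rule, after their values were seen. For NFE2L2, which had the largest difference in its less changed library, and SQSTM1, the most abundant, the 3 nearest genes are named. No DNA-binding or protein data were used here.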

Additional observations from a re-analysis of the deposited data

How the results depend on the processing

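No paired analysis was possible because the siNC library carries no replicate number and there is only 1 of it. For the same reason, leaving out either siCDCA3 library leaves 1 library against 1, with no residual degrees of freedom and no test. Across the 9 genes and across the 102 pathway genes, 0 were called by edgeR, DESeq2 or limma, without a filter, at a mean of at least 5 RPKM (which drops HMOX1 and AKR1C1), with median-of-ratios scaling or with the longest transcript. Over all genes edgeR called 0 higher and 3 lower, DESeq2 called 2 higher and 8 lower, edgeR without a filter called 4 higher and 18 lower, and 0 were called lower by limma or at a mean of at least 5 RPKM; the cause was not tested. The fitted log2 fold change of NQO1 was -0.00349, and it was 0.000613 in DESeq2, 0.0112 at a mean of at least 5 RPKM and 0.000605 with median-of-ratios scaling, so its sign depends on the setting.

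Counts by side of siNC depended on which siCDCA3 library was used. With 1 of them left out, 2 to 5 of the 9 genes were below siNC and 4 to 7 above it, and 55 to 65 of the pathway genes were below and 37 to 47 above. Over all 10153 genes tested 4630 to 5949 were below and 4204 to 5523 above, so such a shift was seen over all genes as well. Of 90 recomputed log2 differences of the 9 genes, 67 stayed within counting error and 23 moved beyond it; 22 of the 23 came from TMM or median-of-ratios scaling, and HMOX1 in siCDCA3-1 went to 1.11 with a pseudocount of 0.1 and to 1.01 with 0.5, past 2-fold with either. Counting intervals, which depth sets, were widest for AKR1C1 and HMOX1, and the spread among siNC cultures is unknown with 1 library.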
